A study of Mus musculus with 12 samples.

Results

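Astrocytes are glial cells of the brain that take up transmitter released at synapses, buffer potassium and water, couple to each other through gap junctions and supply neurons with metabolites. They carry a set of genes that neurons express little, and the RNA levels of these genes in whole tissue are widely used as a measure of the astrocyte fraction and its state. These 10 genes were taken by name: Gfap, Aqp4, Slc1a2, Slc1a3, Aldh1l1, Gja1, S100b, Glul, Aldoc and Fgfr3. All 10 were found, each on 1 locus per table, among 40508 gene names listed in the series.

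The prefrontal cortex (PFC) of 10-week-old male C57BL/6 mice (C57BL/6 J in the study's methods) was profiled by RNA sequencing 2 h, 24 h or 7 d after the last of 14 daily intraperitoneal injections of cocaine at 20 mg/kg/d (cocaine groups) or saline (control groups). The tissue was the bilateral frontal end of the brain and held frontal association, prelimbic and orbital cortex. The 6 groups had 2 libraries each, 12 in all, and every library pooled the PFCs of 5 animals, so a value stands for 10 mice of a group and the spread between single mice is not seen. The deposited tables hold 1 value per gene and group, in FPKM, a fragment count scaled to the length of the transcript and to the mapped reads of the library, which the authors pooled over both libraries. No replicate error can therefore be given, no test over libraries could be run, and the depth of the libraries cannot be read from the tables. A difference is described by its size, as log2((cocaine FPKM + 0.1)/(control FPKM + 0.1)), and is set beside the same quantity for every named locus with a mean FPKM of at least 1, with 13466 such loci for 2 h, 13929 for 24 h and 13562 for 7 d. In whole tissue, fewer astrocytes and less RNA per astrocyte cannot be told apart.

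The members lie on 8 chromosomes, and their promoters do not share 1 set of short motifs. The table of RefSeq promoters used here holds 9 of the 10 genes, all but Aqp4, with 11 starts (GRCm38.p6, the build of the deposited loci). In the 250 bases before each start, on either strand, 5 motifs were searched: the AP-1 site TGACTCA, bound by Fos and Jun proteins, the STAT site TTCCNGGAA, the TATA box TATAAA, the CCAAT box CCAAT and the GC box GGGCGG. Of the 4 promoters printed here, that of Glul is shown because the gene had the highest level, that of Fgfr3 because its ratio was the highest at 7 d, that of Gfap because its ratio was the lowest at 24 h, and that of Gja1 because it holds the AP-1 letters. The runs read 5′ to 3′ on the strand of the gene, end at the base before the start, and have the matched letters in capitals.
Glul, chr1:153899679-153899928, plus strand: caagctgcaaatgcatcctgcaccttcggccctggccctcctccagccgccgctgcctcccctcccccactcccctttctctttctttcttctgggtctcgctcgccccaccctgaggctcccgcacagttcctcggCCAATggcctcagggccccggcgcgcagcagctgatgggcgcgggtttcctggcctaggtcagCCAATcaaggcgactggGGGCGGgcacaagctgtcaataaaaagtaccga
Fgfr3, chr5:33721474-33721723, plus strand: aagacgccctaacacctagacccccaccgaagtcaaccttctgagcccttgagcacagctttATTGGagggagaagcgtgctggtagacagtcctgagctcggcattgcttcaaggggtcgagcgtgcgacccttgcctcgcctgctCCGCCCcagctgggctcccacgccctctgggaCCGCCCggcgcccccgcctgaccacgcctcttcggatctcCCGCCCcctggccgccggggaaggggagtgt
Gfap, chr11:102897201-102897450, minus strand: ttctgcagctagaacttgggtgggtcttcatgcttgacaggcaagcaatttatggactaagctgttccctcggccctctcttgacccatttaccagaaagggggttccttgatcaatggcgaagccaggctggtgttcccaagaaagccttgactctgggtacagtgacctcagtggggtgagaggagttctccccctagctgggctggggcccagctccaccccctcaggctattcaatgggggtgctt
Gja1, chr10:56377050-56377299, plus strand: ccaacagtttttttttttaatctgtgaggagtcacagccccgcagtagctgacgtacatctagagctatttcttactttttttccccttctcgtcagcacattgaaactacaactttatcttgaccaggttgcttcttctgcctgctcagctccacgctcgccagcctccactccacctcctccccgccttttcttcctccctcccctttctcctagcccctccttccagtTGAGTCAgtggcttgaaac
The Glul promoter held 2 CCAAT boxes and 1 GC box, at 33 to 28 bases before the start. The Fgfr3 promoter held 1 CCAAT box and 3 GC boxes, the nearest at 31 to 26 bases before the start, and its second RefSeq start, at position 33722306, followed 2 GC boxes that overlap in 1 base. The Gja1 promoter held the AP-1 letters at 19 to 13 bases before the start, and no motif was matched in the Gfap window. AP-1 letters were matched in 1 member and in 4.46% of all 32851 RefSeq promoters of this length, STAT letters in 1 member (Aldoc, at its second start) and in 0.913%, TATA letters in 1 member (Slc1a3) and in 12.4%. CCAAT letters were matched in 5 members and in 33.8% of all promoters, GC letters in 5 members and in 32.7%. Members were counted by gene, out of the 9 searched and over all of their 11 starts, while the shares are per promoter. The only Slc1a2 start searched, at position 102706438, lies inside the gene, which begins at 102658239. No motif was matched in its window. Apart from the GC boxes of Fgfr3, no matches overlapped. The motifs were chosen with these sequences in view, and a match is a run of letters, not a shown binding site.

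All 10 genes were expressed well above 1 FPKM in every group. Averaged over the 6 groups, the order of levels per transcript length was Glul, Aldoc, Slc1a2, Slc1a3, S100b, Gja1, Gfap, Aqp4, Aldh1l1 and Fgfr3. Glul ranged from 602 to 736 FPKM and Aldoc from 515 to 602 FPKM, so that these neighbours met at the edge of their ranges. Slc1a2 (219 to 286 FPKM), Slc1a3 (169 to 192 FPKM), S100b (88.5 to 115 FPKM) and Gja1 (60.6 to 74.4 FPKM) kept ranges that did not overlap with a neighbour. Gfap (31.4 to 41.3 FPKM), Aqp4 (26.4 to 32.7 FPKM), Aldh1l1 (23.7 to 28.0 FPKM) and Fgfr3 (17.96 to 24.1 FPKM) each overlapped with the next gene in the order. The 3 tables were normalized separately, so levels from different time points are set side by side.

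Over the whole set, the markers were higher after cocaine than after saline at 2 h and 7 d, and lower at 24 h. At 2 h all 10 were higher, beside 56.5% of all loci, with a median log2 ratio of 0.18 against 0.02 over all loci. At 24 h 9 of 10 were lower, beside 46.9% of all loci, with a median of -0.14 against 0.01. At 7 d 9 of 10 were higher, beside 47.8% of all loci, with a median of 0.20 against -0.01. The differences were small. The middle of the distribution of all loci, from its lowest 5% to its highest 5%, reached from -0.33 to 0.40 in the 2 h table, -0.28 to 0.30 in the 24 h table and -0.39 to 0.33 in the 7 d table, and most members fell inside it.

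**Figure D1:**
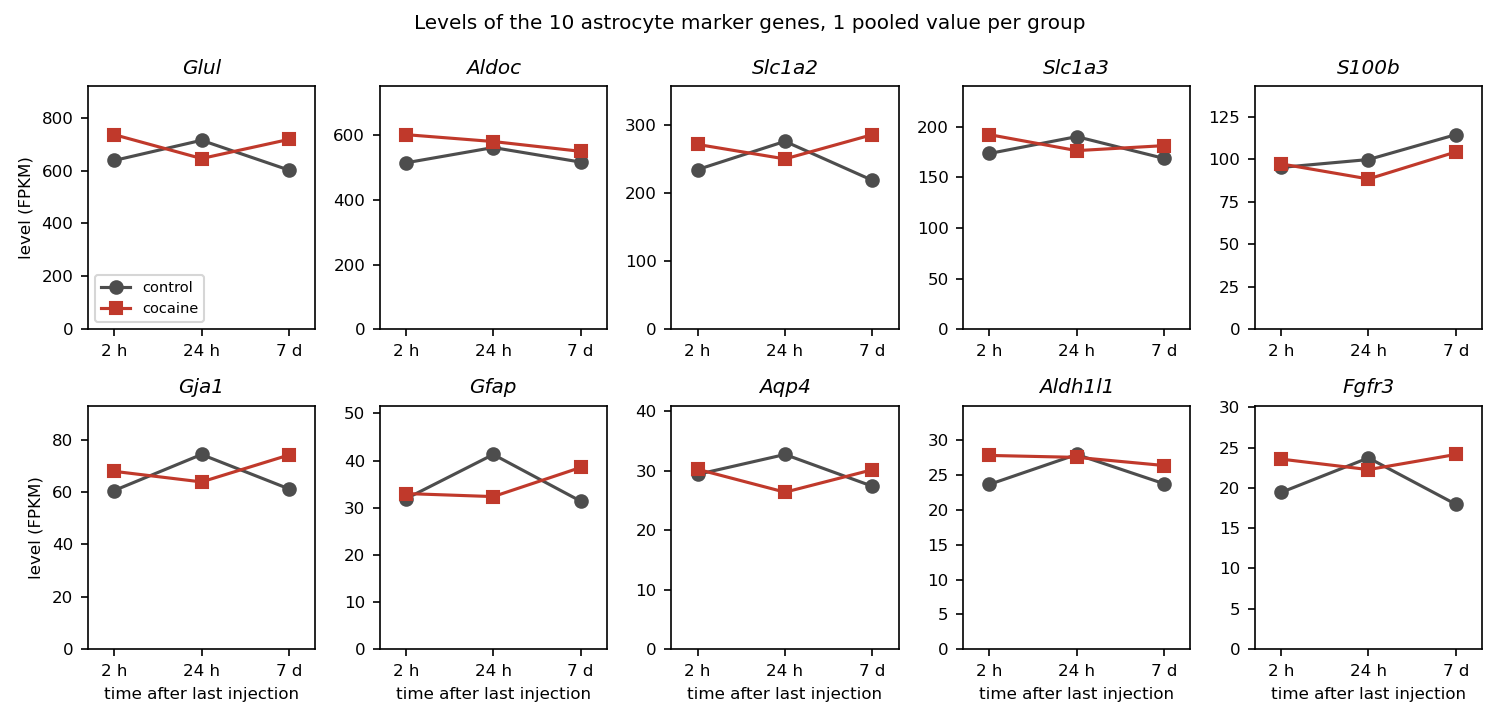
Level in FPKM (vertical axes, starting at 0) of each of the 10 genes by time after the last injection (horizontal axes), with circles for control and squares for cocaine, 1 pooled value per group and no error. In most panels the control line peaks at 24 h while the cocaine line dips there, as for Gfap, with 41.3 FPKM in the 24 h control and 32.4 FPKM in the 24 h cocaine group.

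The count past 1.2-fold was read against the share of all loci past the same fold. At 2 h 1 member (Fgfr3) was higher past 1.2-fold, beside 10.6% of all loci, and none was lower, beside 7.26%, which is a share near that of all loci. At 24 h 2 members (Gfap and Aqp4) were lower past 1.2-fold, beside 5.72%, and none was higher, beside 6.27%. At 7 d 4 members (Gfap, Slc1a2, Gja1 and Fgfr3) were higher past 1.2-fold, beside 8.3%, and none was lower, beside 11.9%. Less the median of genes of like transcript length, Fgfr3 at 2 h and Slc1a2 at 7 d no longer passed 1.2-fold, and Glul did at 7 d. Against the mean of the 3 controls, a comparison added after the values were seen, none passed at 2 h or 24 h and 1 did at 7 d. With 1.1-fold the counts were 7 higher at 2 h (24.5% of all loci), 6 lower at 24 h (15.1%) and 7 higher at 7 d (21.4%). No member passed 1.5-fold in either direction at any time, which 4.08% of all loci did in the 2 h table, 3.32% in the 24 h table and 3.62% in the 7 d table.

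**Figure D2:**
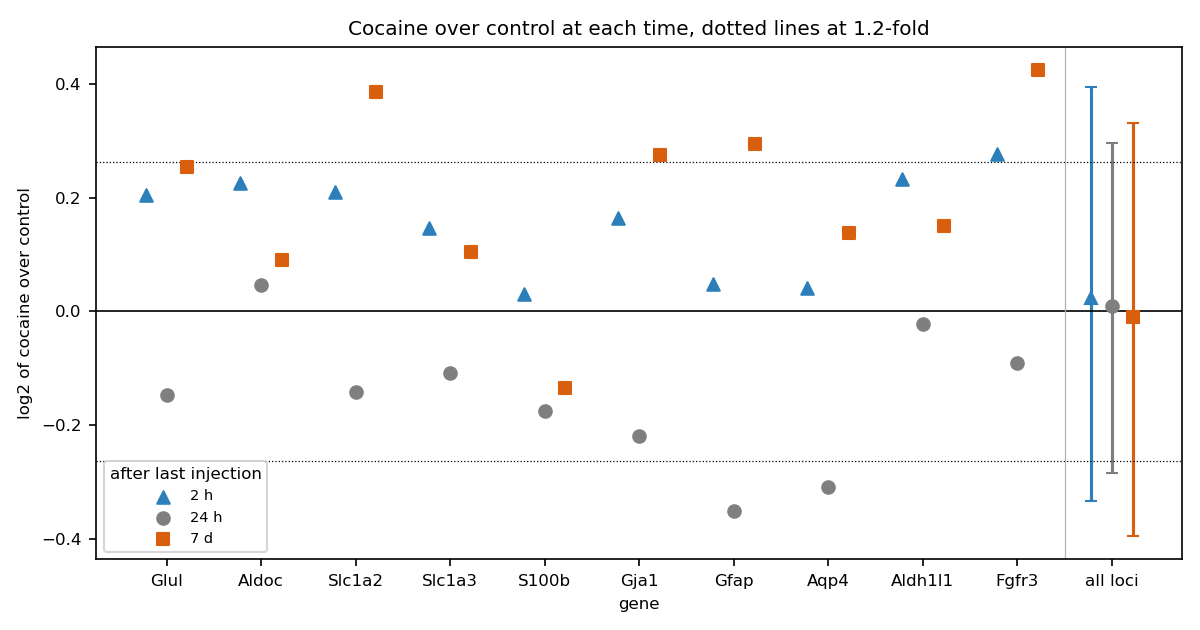
Log2 of cocaine over control (vertical axis) of each gene at 2 h (triangles), 24 h (circles) and 7 d (squares), with the median of all loci and the range from their lowest 5% to their highest 5% at the right, and dotted lines at 1.2-fold. The 24 h circles lie below the triangles and squares of the same gene for all 10 genes, and Fgfr3 has the highest ratio, 0.42 at 7 d.

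Glutamate cleared from the synapse enters astrocytes through the transporters GLT-1 (Slc1a2) and GLAST (Slc1a3) and is turned into glutamine by glutamine synthetase (Glul). Slc1a2 stood at 235 FPKM in the control and 272 FPKM in the cocaine group at 2 h, at 276 and 251 FPKM at 24 h, and at 219 and 286 FPKM at 7 d. Its log2 ratios were 0.21, -0.14 and 0.39, and the last was above 96.6% of all loci. The 7 d pair held both the lowest and the highest of its 6 values. Slc1a3 stood at 174 and 192 FPKM at 2 h, 190 and 177 FPKM at 24 h, and 169 and 181 FPKM at 7 d, with log2 ratios of 0.15, -0.11 and 0.10. It took the same directions as Slc1a2 with smaller sizes. Glul stood at 638 and 736 FPKM at 2 h, 714 and 645 FPKM at 24 h, and 602 and 718 FPKM at 7 d, with log2 ratios of 0.21, -0.15 and 0.25. For all 3 genes the 24 h control was the highest control and the 24 h cocaine value the lowest cocaine value.

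In the wider list of 36 genes for glutamate, potassium and water handling, which holds these 3 genes and Aqp4, 30 of 35 measured genes were higher at 2 h, 23 of 35 lower at 24 h and 31 of 34 higher at 7 d. Over all loci these shares were 56.5%, 46.9% and 47.8%. The medians of the list were 0.12, -0.03 and 0.18. At 7 d 8 genes were higher past 1.2-fold, beside 8.3% of all loci, and none was lower, beside 11.9%. The largest ratios among them were 0.66 for Slc38a5, a glutamine transporter that was low at 1.77 FPKM in the control and 2.86 FPKM in the cocaine group, 0.46 for Slc6a9, the glycine transporter GlyT1, with 7.25 and 10.04 FPKM, and that of Slc1a2. At 24 h 2 genes were lower past 1.2-fold, Slc7a11, the light chain of the cystine-glutamate exchanger, with 7.65 and 6.15 FPKM, and Aqp4. These 2 of 35 were near the 5.72% of all loci that were lower past 1.2-fold at 24 h. At 2 h Slc38a5 alone passed 1.2-fold, and it was lower there (2.54 and 2.06 FPKM), beside 7.26% of all loci.

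Gfap encodes the intermediate filament of astrocytes that accumulates when they react to injury. It stood at 31.9 FPKM in the control and 33.0 FPKM in the cocaine group at 2 h, at 41.3 and 32.4 FPKM at 24 h, and at 31.4 and 38.5 FPKM at 7 d. The log2 ratios were 0.05, -0.35 and 0.29. The 24 h ratio was the lowest of the 30 member ratios, with 3.42% of all loci below it, and the 24 h control was the highest of its 6 values. The deposited Gfap locus spanned 276375 bases at 2 h and 24 h (chr11:102835849-103112223) against 9865 bases for the RefSeq gene (chr11:102887336-102897200), and the part of reads from neighbouring genes in its value was not tested. The loci of Aldh1l1 (113953 bases against 48404), S100b (91450 against 7484), Glul (60182 against 9795) and Aldoc (20081 against 4709) were also longer than the RefSeq gene at 2 h and 24 h. At 7 d those of Gfap (273755 bases), Aldh1l1 (113791), S100b (91439) and Glul (60182) were longer than it as well.

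Of 13 genes listed as raised in reactive astrocytes of any kind, Gfap included, 6 passed 1 FPKM at 2 h and 7 d and 7 did at 24 h, while the others were below it. At 2 h 5 of 6 were higher and 3 of them past 1.2-fold: Hspb1, a small heat shock protein, had 5.09 and 9.79 FPKM (0.93), Cp, ceruloplasmin, had 5.56 and 7.15 FPKM (0.36), and Vim, vimentin, had 21.2 and 26.1 FPKM (0.30). At 24 h 3 of 7 were higher and 4 lower, with a median of -0.04, and the 2 past 1.2-fold were the filament genes Gfap and Vim (27.4 and 22.2 FPKM, -0.31), both lower. At 7 d 5 of 6 were higher, and those past 1.2-fold were Hspb1 (5.15 and 6.35 FPKM, 0.30), S1pr3, a sphingosine phosphate receptor (2.03 and 2.51 FPKM, 0.30), and Gfap. The medians of the list were 0.21 at 2 h and 0.27 at 7 d. Over all loci, 56.5% were higher at 2 h, 46.9% lower at 24 h and 47.8% higher at 7 d. Past 1.2-fold these shares were 10.6%, 5.72% and 8.3%.

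Genes of the A1 list, linked to neurotoxic reactive astrocytes, were measured for 10 of 12 at each time, with medians of 0.18, -0.12 and 0.04. At 2 h 7 were higher, beside 56.5% of all loci, and 3 lower. Past 1.2-fold, 3 were higher, beside 10.6%, and 1 was lower, beside 7.26%. Fkbp5, a cochaperone of the glucocorticoid receptor, had 6.02 and 9.40 FPKM (0.64), Amigo2, an adhesion protein, 1.13 and 1.64 FPKM (0.51), and Serping1, the C1 inhibitor, 4.99 and 6.55 FPKM (0.39), and Psmb8, an immunoproteasome subunit named after its values were seen, was lower at 3.11 and 2.50 FPKM (-0.30). No A1 gene passed 1.2-fold at 24 h or 7 d. Among all loci, 6.27% were higher and 5.72% lower past it at 24 h, and 8.3% and 11.9% at 7 d. The A2 list was measured for 5 of 12 genes, with medians of -0.05, -0.02 and 0.04. Sphk1, sphingosine kinase (3.52 and 2.62 FPKM, -0.41), and Tm4sf1, a membrane protein (8.44 and 6.60 FPKM, -0.35), were lower at 24 h. At 7 d S100a10, an annexin partner (52.3 and 40.7 FPKM, -0.36), and Cd14, a receptor of innate immunity (1.64 and 1.35 FPKM, -0.26), were lower, and Ptgs2, cyclooxygenase 2 (2.98 and 3.65 FPKM, 0.28), was higher.

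Aqp4 is the water channel of the astrocyte endfeet and Gja1 the main gap junction protein of astrocytes, connexin 43. Aqp4 stood at 29.4 and 30.2 FPKM at 2 h, 32.7 and 26.4 FPKM at 24 h, and 27.4 and 30.2 FPKM at 7 d, with log2 ratios of 0.04, -0.31 and 0.14. Like Gfap, it was near 0 at 2 h and had its largest difference at 24 h. Gja1 stood at 60.6 and 68.0 FPKM at 2 h, 74.4 and 63.9 FPKM at 24 h, and 61.3 and 74.2 FPKM at 7 d, with log2 ratios of 0.16, -0.22 and 0.28. Its 24 h control and its 7 d cocaine value were level with each other, and the other values were lower. The Gja1 locus matched the RefSeq gene base for base (chr10:56377300-56390419).

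Among 12 gap junction and pannexin genes, Gja1 included, 11 were measured, with medians of 0.07, -0.15 and 0.18. At 2 h Gjb6, connexin 30, the other main connexin of astrocytes, had 28.5 and 38.99 FPKM (0.45), and Gjc1, connexin 45, had 1.81 and 2.26 FPKM (0.30). At 7 d Gjb2, connexin 26 (6.17 and 7.96 FPKM, 0.36), Gja4, connexin 37 of vessels (1.55 and 2.02 FPKM, 0.36), and Gjb6 (28.9 and 36.2 FPKM, 0.33) had the largest ratios of 4 that passed 1.2-fold, with Gja1 next. At 24 h 3 genes were lower past 1.2-fold, and the largest difference was that of Gjb1, connexin 32 of oligodendrocytes (2.76 and 1.95 FPKM, -0.48). Gjc1 was higher at 24 h (1.76 and 2.17 FPKM, 0.29). Among all loci, 10.6% were higher past 1.2-fold at 2 h and 8.3% at 7 d. At 24 h 5.72% of all loci were lower past it and 6.27% higher.

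Aldoc, aldolase C, is the astrocytic form of a glycolytic enzyme, and Aldh1l1 is a folate enzyme used as a marker of all astrocytes. Aldoc stood at 515 and 602 FPKM at 2 h, 563 and 581 FPKM at 24 h, and 517 and 551 FPKM at 7 d, with log2 ratios of 0.23, 0.05 and 0.09. It was the only member that was higher after cocaine at all 3 times. Its locus also carried the name Pigs at 2 h and 24 h, and at 7 d, where Pigs had a locus of its own, Pigs stood at 16.9 and 17.9 FPKM. Aldh1l1 stood at 23.7 and 27.8 FPKM at 2 h, 28.0 and 27.6 FPKM at 24 h, and 23.8 and 26.4 FPKM at 7 d, with log2 ratios of 0.23, -0.02 and 0.15. Its cocaine values stayed within 0.08 on the log2 scale over the 3 times and its control values within 0.24.

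Of 16 genes of aldolase, glycogen and lactate metabolism, 13 of 15 measured were higher at 2 h, 10 of 16 lower at 24 h and 9 of 14 higher at 7 d, with medians of 0.08, -0.05 and 0.11. Over all loci these shares were 56.5%, 46.9% and 47.8%. At 2 h 3 were higher past 1.2-fold, beside 10.6% of all loci. Pfkfb3, which drives glycolytic flux, had 4.90 and 7.06 FPKM (0.52), Slc2a1, the glucose transporter GLUT1, 36.1 and 49.1 FPKM (0.44), and Ppp1r3c, a glycogen-targeting subunit of protein phosphatase, 15.9 and 20.9 FPKM (0.39). None passed 1.2-fold at 24 h, where 6.27% of all loci were higher and 5.72% lower past it. At 7 d Phka1, a subunit of phosphorylase kinase (2.93 and 3.65 FPKM, 0.31), and Pygb, brain glycogen phosphorylase (39.96 and 48.2 FPKM, 0.27), were higher past 1.2-fold. The share of all loci higher past 1.2-fold at 7 d was 8.3%.

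Fgfr3 is the fibroblast growth factor receptor of astrocytes and their precursors. It stood at 19.4 FPKM in the control and 23.6 FPKM in the cocaine group at 2 h, 23.7 and 22.3 FPKM at 24 h, and 17.96 and 24.1 FPKM at 7 d. The log2 ratios were 0.28, -0.09 and 0.42, above 90.3%, 22.4% and 97.2% of all loci, and those at 2 h and 7 d were the highest of any member at those times. The 3 cocaine values were close together, within 0.12 on the log2 scale, while the controls ranged over 0.40. Of 24 genes of the FGF pathway, Fgfr3 included, 13 of 20 measured were higher at 2 h, 10 of 19 at 24 h and 15 of 20 at 7 d, with medians of 0.11, 0.00062 and 0.13. Over all loci, 56.5% were higher at 2 h, 46.9% lower at 24 h and 47.8% higher at 7 d. Past 1.2-fold, 6 were higher (10.6% of all loci) and 1 lower (7.26%) at 2 h. At 24 h 2 were higher (6.27%) and 2 lower (5.72%), and at 7 d 5 were higher (8.3%) and 1 lower (11.9%).

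The FGF pathway list holds feedback inhibitors of the ERK cascade, which many receptors share, and these had its largest ratios at 2 h and 24 h. Dusp6, an ERK phosphatase, had 14.1 and 32.6 FPKM at 2 h (1.198) and 18.4 and 25.7 FPKM at 24 h (0.49). Spry4, a Sprouty inhibitor, had 1.36 and 3.03 FPKM at 2 h (1.1) and 1.64 and 2.44 FPKM at 24 h (0.55). Spry2 had 14.04 and 19.3 FPKM at 2 h (0.45) and 12.4 and 16.6 FPKM at 7 d (0.41). Dusp6 and Spry4 were thus higher at 24 h, where Fgfr3 was at -0.09. The ligands Fgf2 (1.51 and 1.12 FPKM at 24 h, -0.40) and Fgf22 (1.84 and 1.195 FPKM at 7 d, -0.58) were lower. Both had low levels, and the Fgf2 locus also carried the name of another gene at 24 h.

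S100b encodes a calcium-binding protein of astrocytes that some oligodendrocyte lineage cells also carry. It stood at 95.3 and 97.4 FPKM at 2 h, 99.9 and 88.5 FPKM at 24 h, and 115 and 104 FPKM at 7 d, with log2 ratios of 0.03, -0.18 and -0.13. It was the only member that was lower at 7 d, and the only one whose highest control was not the 24 h one. Transcript length moved with the ratios at 7 d: over all loci with a length, Spearman's rho between length and log2 ratio was 0.16, 0.09 and 0.47 at 2 h, 24 h and 7 d, a description across genes of the same 2 pooled values. S100b has the shortest transcript of the members, 1484 nt, and Slc1a2 the longest, 11595 nt. Loci of the length of S100b had a median log2 ratio of -0.12 at 7 d, and those of the length of Slc1a2 0.14. Less the median of like length, the 7 d ratio was -0.01 for S100b, 0.25 for Slc1a2, 0.38 for Fgfr3, 0.32 for Gfap, 0.28 for Gja1, 0.28 for Glul, 0.12 for Aldoc, 0.11 for Aldh1l1, 0.07 for Aqp4 and 0.06 for Slc1a3. All members but S100b thus stayed above 0 at 7 d.

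**Figure D3:**
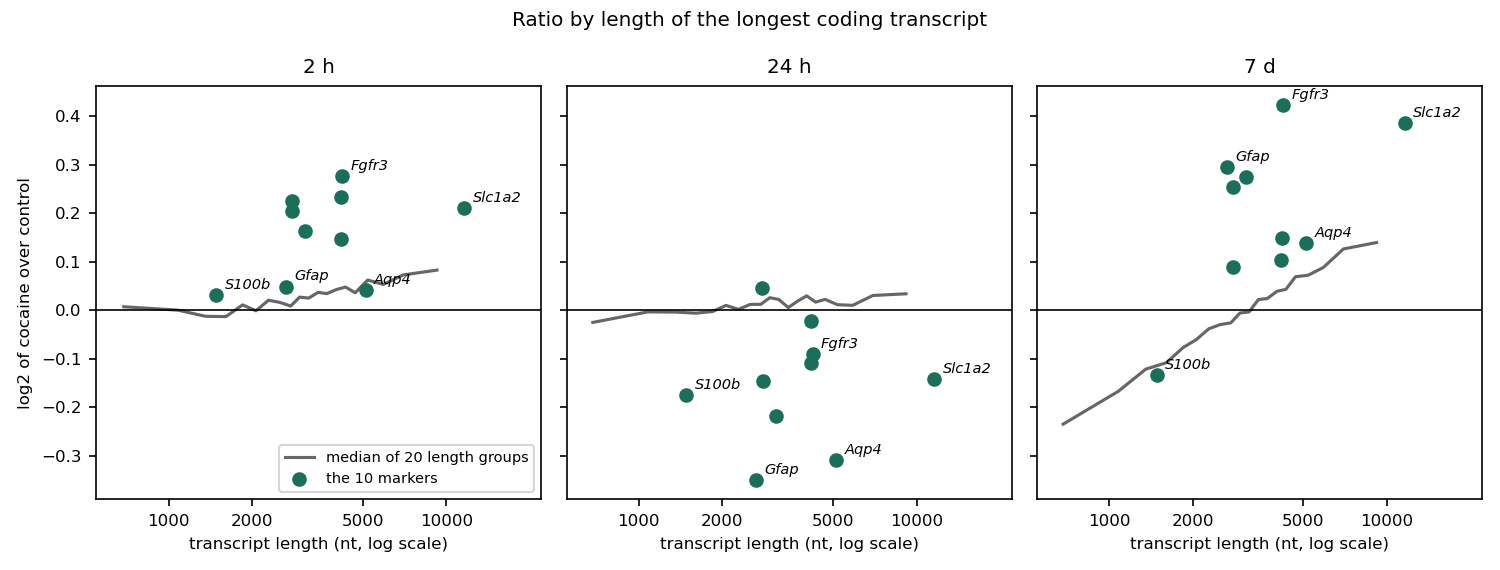
Log2 of cocaine over control (vertical axes) against the length of the longest coding transcript in nt (horizontal axes, log scale) at 2 h, 24 h and 7 d, with the line through the medians of 20 length groups of all loci and points for the 10 genes. At 7 d the line climbs from -0.23 in the shortest group to 0.14 in the longest, S100b lies on it and the other 9 genes lie above it.

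At 24 h the control and the cocaine group both departed from the other times, in opposite directions. For 9 of 10 members, S100b being the exception, the 24 h control was the highest of the 3 controls, beside 37.2% of 14218 genes measured in all 3 tables. For 8 of 10, Aldoc and Aldh1l1 being the exceptions, the 24 h cocaine value was the lowest of the 3 cocaine values, beside 22.2% of all genes. The 24 h control lay above the mean of the other controls by a median log2 difference of 0.22 over the members and 0.02 over all genes, and the 24 h cocaine value differed from the mean of the other cocaine values by -0.15 and 0.03. Lists of other cell types, described below, had the same signs. The 2 medians were 0.32 and -0.17 for the meningeal list, and 0.20 and -0.06 for the endothelial list. They were 0.20 and -0.02 for the mural, 0.13 and -0.02 for the oligodendrocyte, and 0.05 and -0.05 for the microglial list. In the neuronal (0.07 and 0.05) and precursor (0.21 and 0.08) lists both were above 0. The range over the controls was wider than the range over the cocaine groups for 9 of 10 members and for 55.0% of all genes. The median log2 range over the controls was 0.26 for the members and 0.22 for all genes, and that over the cocaine groups was 0.19 and 0.20. For all 10 members the range of the 3 control values overlapped that of the 3 cocaine values, as it did for 92.4% of all genes. Being higher at 2 h, lower at 24 h and higher at 7 d was the pattern of 8 of 10 members, S100b and Aldoc being the exceptions, and of 13.6% of all genes.

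**Figure D4:**
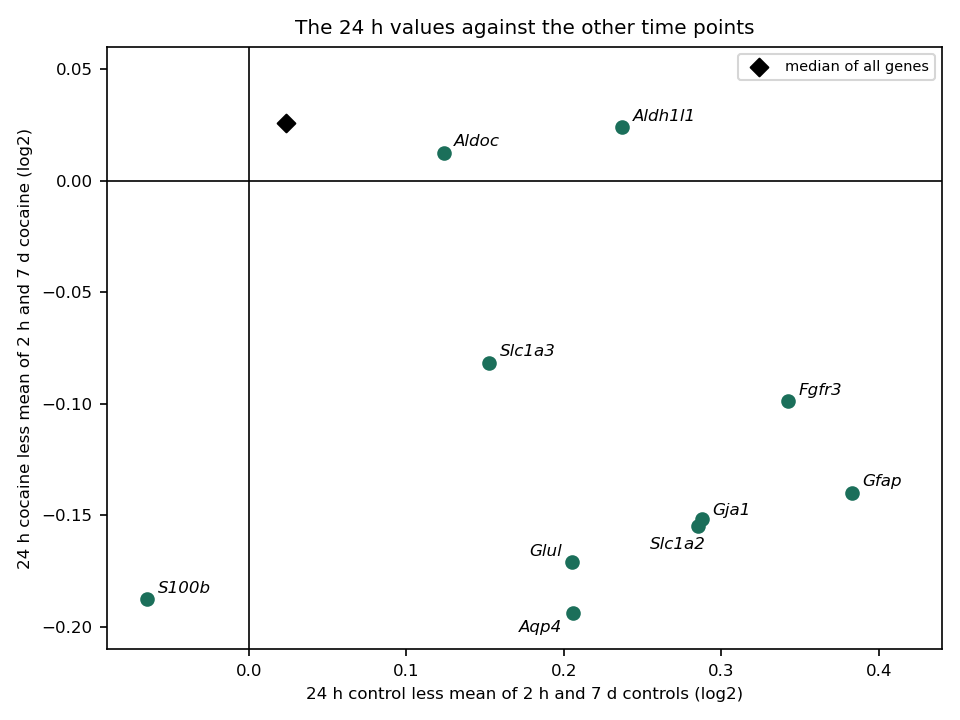
Each of the 10 genes by the log2 difference of its 24 h control from the mean of its 2 h and 7 d controls (horizontal axis) and the same for the cocaine groups (vertical axis), with the median of all genes as a diamond. The 24 h control is above the others for 9 genes, up to 0.38 for Gfap, and the 24 h cocaine value is below the others for 8 genes, down to -0.19 for Aqp4.

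Most other astrocyte genes took the same directions as the markers. Of 45 further genes known from astrocytes, 42 were higher at 2 h, 36 lower at 24 h and 38 of 44 measured higher at 7 d, with medians of 0.13, -0.08 and 0.17. Of all loci, 56.5% were higher at 2 h, 46.9% lower at 24 h and 47.8% higher at 7 d. Past 1.2-fold, 6 were higher (10.6% of all loci) and none lower (7.26%) at 2 h. At 24 h none was higher (6.27%) and 2 were lower (5.72%), and at 7 d 12 were higher (8.3%) and 1 lower (11.9%). The 6 higher at 2 h and the 2 lower at 24 h were near the shares of all loci. At 2 h the largest ratios were those of Mertk, a phagocytic receptor (8.24 and 11.4 FPKM, 0.46), Gjb6, and Dio2, the thyroid hormone deiodinase (23.1 and 30.3 FPKM, 0.39). At 24 h the 2 lower genes were Fabp7, a fatty acid binding protein (42.3 and 31.2 FPKM, -0.44), and Slc25a18, a mitochondrial glutamate carrier (46.3 and 38.2 FPKM, -0.28). At 7 d the largest were those of Hepacam, a cell adhesion protein (18.1 and 23.4 FPKM, 0.37), Nfia (2.77 and 3.56 FPKM, 0.35) and Sox9 (5.08 and 6.51 FPKM, 0.35), transcription factors of the astrocyte fate.

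At 7 d the summed level of this longer list was nearly even between the groups, although most of its genes were higher. Cst3, cystatin C, had 1866 and 1602 FPKM (-0.22) and Apoe, apolipoprotein E, 1765 and 1835 FPKM (0.06), both named after their values were seen. The summed level of the list was 6311 and 7035 FPKM at 2 h, 7192 and 6887 FPKM at 24 h, and 6507 and 6527 FPKM at 7 d.

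Markers of vessels and meninges had medians of the same sign as the astrocyte markers at each time, and those of neurons had medians near 0. The endothelial list (10 genes) had medians of 0.17, -0.09 and 0.14, with 9 higher at 2 h, 8 lower at 24 h and 9 higher at 7 d, and summed levels of 153 and 173 FPKM, 173 and 170 FPKM, and 157 and 167 FPKM. The mural list (8 genes) had medians of 0.11, -0.07 and 0.23, and summed levels of 107 and 108 FPKM, 110 and 106 FPKM, and 94.2 and 103 FPKM. The meningeal list (7 genes) had medians of 0.13, -0.21 and 0.33, with 7 higher at 2 h, 7 lower at 24 h and 5 higher at 7 d, and summed levels of 71.5 and 83.3 FPKM, 88.7 and 75.5 FPKM, and 73.2 and 87.7 FPKM. The meningeal markers had the largest medians of these 3 lists at 24 h and 7 d. Beside these counts, 56.5% of all loci were higher at 2 h, 46.9% lower at 24 h and 47.8% higher at 7 d. No list median was corrected for transcript length, which moved with the ratios at 7 d. Their part in the values of the astrocyte markers was not tested.

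Neuronal markers (12 measured genes at 2 h and 24 h, 13 at 7 d) had medians of -0.01, 0.02 and 0.05, none past 1.2-fold, and summed levels of 4411 and 4410 FPKM, 4562 and 4487 FPKM, and 4572 and 4567 FPKM. Oligodendrocyte markers (12 genes) had medians of -0.04, -0.21 and 0.02, with all 12 lower at 24 h, where their summed level was 876 and 736 FPKM, beside 733 and 694 FPKM at 2 h and 851 and 846 FPKM at 7 d. Among all loci, 46.9% were lower at 24 h. In a given direction, 5.72% to 11.9% of all loci passed 1.2-fold over the 3 times. Precursor markers (7 genes) had medians of 0.11, 0.05 and 0.21, and microglial markers (12 genes, 11 at 24 h) had medians of 0.14, -0.04 and -0.05, with summed levels of 335 and 353 FPKM, 269 and 254 FPKM, and 348 and 339 FPKM. At 24 h the markers of oligodendrocytes were thus lower beside those of astrocytes, and at 7 d the precursor markers were higher beside them. In the choroid plexus and ependymal list Ttr, the choroid plexus transport protein, was the only one of 8 genes over 1 FPKM, with 1.90 and 0.461 FPKM, 1.801 and 1.0999 FPKM, and 0.284 and 6.54 FPKM, and Otx2, a choroid plexus transcription factor, was listed at 0 in the 3 controls and the 2 h cocaine group. In the list for olfactory bulb and striatum, 5 of 11 genes were measured at 2 h and 7 d and 4 at 24 h, with medians of 0.17, 0.12 and 0.08. The part of these cells in the values of the astrocyte markers was not tested.

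**Figure D5:**
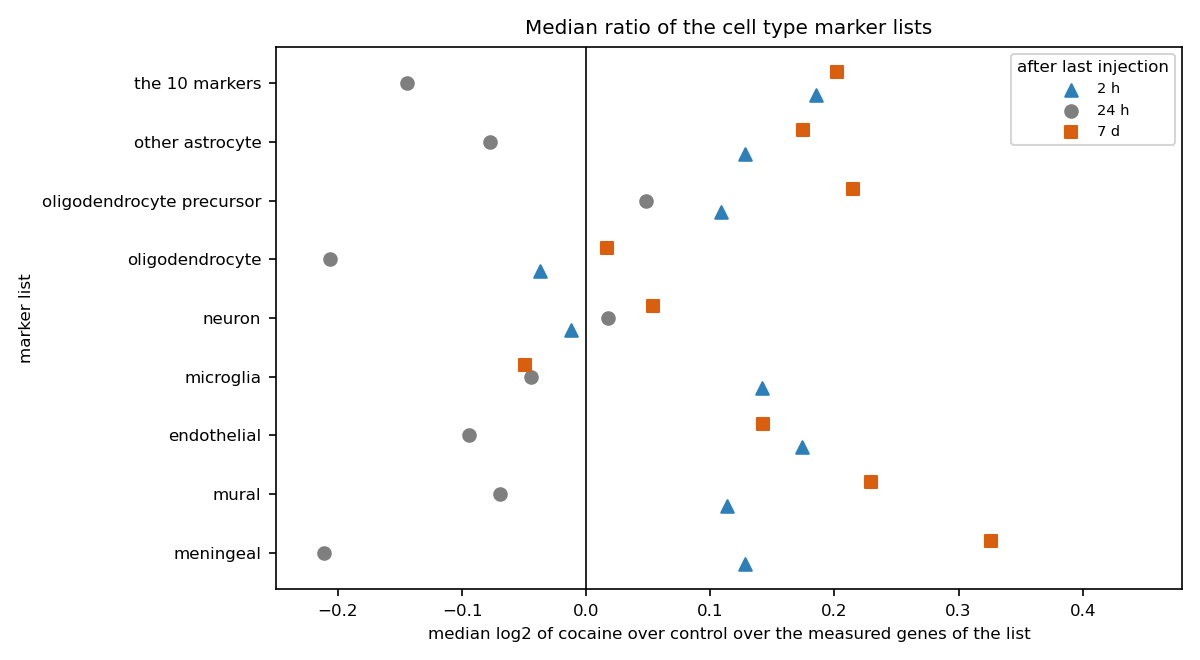
Median log2 of cocaine over control (horizontal axis) of the measured genes of 9 marker lists at 2 h (triangles), 24 h (circles) and 7 d (squares), 1 row per list and no error. The 10 astrocyte markers, with medians of 0.18, -0.14 and 0.20, the other astrocyte genes and the endothelial, mural and meningeal lists are above 0 at 2 h and 7 d and below 0 at 24 h, and the neuronal medians stay between -0.01 and 0.05.

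Over 8798 genes with a mean of at least 5 FPKM in every table, the 5 genes outside the members whose 3 ratios were nearest to the members' medians, by the root mean square difference over the 3 time points, were Pde7b, a cyclic AMP phosphodiesterase (0.0043), Rab31, a small GTPase (0.014), Inppl1, an inositol phosphatase (0.018), Dok6, an adaptor protein (0.020), and Dlg2, a synaptic scaffold (0.020). They belong to none of the lists described here. Pde7b was named on another locus at 7 d, with a ratio of 0.53, beside 0.21 for the locus used, so its place depends on the choice of locus. Of the members themselves, Glul was the nearest, at 0.032 and rank 15, and S100b the farthest, at 0.21 and rank 4374.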

How the data were processed

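RNA of mouse PFC was sequenced by the authors (paired-end, Illumina HiSeq2000). Per the labels, the processing named CASAVA 1.8.2, Trimmomatic 0.32, TopHat2 2.0.12, Cufflinks 2.2.1 and Cuffdiff, with GRCm38/mm10. The study's methods name cutadapt and mm9 instead, and the deposited loci match GRCm38 positions, those of Gja1 and Fgfr3 base for base. The deposited FPKM values were made by the authors with Cuffdiff, 1 per locus and group, in 3 tables of 41319, 42527 and 41667 loci (2 h, 24 h, 7 d), each normalized on its own. FPKM are not counts, and no count test was run. The tables also hold the authors' own comparisons (fold changes, statistics, p and q values), which were not used. The column labels alone do not settle which value column is which group. The first was taken as the control from the order of saline and cocaine in the study's supplementary values. As read here, those values cover 24 h only, and the same order was used at 2 h and 7 d.

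The longest locus naming a gene was taken, genes with tied longest loci were left out of lists, and named loci with a mean FPKM of at least 1 formed the background. Ratios had a pseudocount of 0.1 FPKM on the log2 scale, and understate the change of low genes. Called means past 1.2-fold. Genes named were the members, the 3 genes with the largest ratios past 1.2-fold per astrocyte list and time, the 5 nearest genes, and defining markers of other cell types, and 1 gene that this rule names is not reported here. Pigs, Psmb8, Cst3 and Apoe were named outside this rule. The 10 genes and the lists were chosen with earlier results of these data known. Lengths were those of the longest coding transcript by symbol, found for 85.6%, 84.8% and 85.1% of loci. Promoter sequences came from RefSeq. Alternatives were another pseudocount, centring, correction by length, another choice of locus and other folds. Python 3.11.15, pandas 2.3.3, numpy 2.4.6 and matplotlib 3.10.9 were used. The log2 ratio and the count past 1.2-fold were tested on ratios planted in the 2 h control values. The other calculations were not tested in this way.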

Additional observations from a re-analysis of the deposited data

Results flagged for a closer look

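The ratio of Gfap at 7 d was above that at 24 h by 0.65 on the log2 scale. It drew attention because the 2 time points took opposite directions past 1.2-fold, with 41.3 FPKM in the control and 32.4 FPKM in the cocaine group at 24 h and 31.4 and 38.5 FPKM at 7 d. Each is 1 pooled value per group, so the difference was not tested. The controls alone differed by 0.39 on the log2 scale over the 3 time points.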

How the results depend on the processing

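Of the 30 ratios of the 10 genes, all 30 kept their sign without a pseudocount, with a pseudocount of 1 FPKM, after subtracting the median of all loci, and with the locus of highest mean FPKM. Less the median of genes of like transcript length, 29 kept their sign and the largest shift was 0.14. At 7 d this took Slc1a2 below 1.2-fold (0.25) and Glul above it (0.28), so that the count stayed at 4. Against the mean of the 3 controls, an alternative chosen after seeing the data, 23 kept their sign, 7 took the other and the largest shift was 0.21. No ratio past 1.2-fold reversed under any of these. The count of genes past 1.2-fold was 1 at 2 h, and was 0 after subtracting the median of all loci, 0 less the median of like length, 0 against the mean of the 3 controls, 7 with 1.1-fold and 0 with 1.5-fold. The count of lower genes at 24 h was 2, and was 0 against the mean of the 3 controls, 6 with 1.1-fold and 0 with 1.5-fold. The count of higher genes at 7 d was 4. It was 5 after subtracting the median of all loci, 1 against the mean of the 3 controls, 7 with 1.1-fold and 0 with 1.5-fold. The share of all loci past 1.2-fold at 2 h was 27.2% with no minimum of FPKM and 7.92% from 10 FPKM. These shares were 23.5% and 5.21% at 24 h, and 28.2% and 15.6% at 7 d. No paired analysis was possible because each deposited value is pooled over the replicates of its group, and for the same reason no replicate could be left out. Depth could not be read from FPKM.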
